A study of Mus musculus with 20 samples.

Results

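Full transection (FT) of the spinal cord was compared with lateral hemisection (HS) at 72 h post-lesion, across all 16810 genes of the deposited table and over 6 of its 20 samples, 3 per group. The labels of these 6 samples give FT or HS at 72 h. In both groups microglia had been isolated with a cell sorter, by their high eGFP signal, from a spinal cord segment around the thoracic lesion. All mice were adult CX3CR1+/eGFP heterozygotes of 12 weeks on a C57BL/6 background, and males were used for the sort. The groups therefore shared genotype, sex, age and time, and differed in the lesion: HS cut the cord on 1 side, whereas FT cut it through. The reporter marks resident microglia and also blood monocytes, so that the sort does not by itself separate them. Over all its times the study used more FT than HS mice, and more mice than libraries. How many mice stand behind each library is not given in the sources used here, and p-values measure only the spread between samples. Unless stated, this spread was estimated within all 7 groups of the 20 samples, and not from these 6 samples alone. Non-injured mice (NI) gave 3 further samples, which are used below as a reference level.

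Microglia are the resident macrophages of the central nervous system. At rest they carry surface receptors such as the purine receptor encoded by *P2ry12* and depend on signaling through the receptor encoded by *Csf1r*. After a spinal cord lesion they divide, take up myelin and cell debris, and switch on lysosomal, lipid-handling, chemokine and interferon-stimulated genes, while monocytes enter the lesion from the blood. The comparison asks whether the extent of the lesion alters this state at its early peak. A value in the text is a normalized read count in reads per 1e6 reads (CPM), and a difference is FT minus HS on the log2 scale after 0.5 CPM was added.

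Depth ranged from 3.87 to 12.5 M reads on the listed genes after FT and from 5.23 to 34.1 M reads after HS, where M stands for 1e6. The library numbered 2 in either group stood apart from the other samples. *Fth1*, which encodes the ferritin heavy chain, had 695 CPM in FT replicate 2 and 554 CPM in HS replicate 2, against 6659 to 8110 CPM in the other 4 libraries. *Rpl13*, a ribosomal protein gene, had 190 and 162 CPM in these libraries against 1490 to 1651 CPM. Genes with a mean of at least 10 CPM over the 6 samples were searched for such values, after 0.5 CPM was added. Of these, 13 lay at least 4-fold below both other replicates in replicate 2 of FT and of HS alike. None did so in both groups in replicate 1 or in replicate 3. A library of the same kind was present in every other group of the series, with *Fth1* at 413 to 1400 CPM. Since each group at 72 h held 1 such library, the comparison over all genes is given below with both and without both. Lists and single genes are given with both, unless stated.

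No gene was DE between FT and HS at 72 h. With DE genes defined by a Benjamini-Hochberg adjusted p under 0.05 and a change of at least 2-fold, limma called 0 of 16810 genes, and the smallest adjusted p was 0.99997. An unadjusted p under 0.05 was reached by 505 genes (3.00%), of which 287 were higher in FT (1.71%) and 218 lower (1.30%). Unpaired fits of the recovered reads also gave 0 DE genes, with 472 genes under an unadjusted p of 0.05 by the edgeR quasi-likelihood test, 508 by its likelihood ratio test and 384 by DESeq2. All 3 FT samples lay above all 3 HS samples for 690 genes (4.10%) and below them for 578 genes (3.44%). The median difference of all genes was -0.015 and the quartiles were -0.17 and 0.16. For 59 genes the difference, on the log2 scale after 0.5 CPM was added, was at least 2-fold. Without both libraries numbered 2, 326 genes had an unadjusted p under 0.05 and 1 gene was DE, *Sfrp4*, which is described below.

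**Figure D1:**
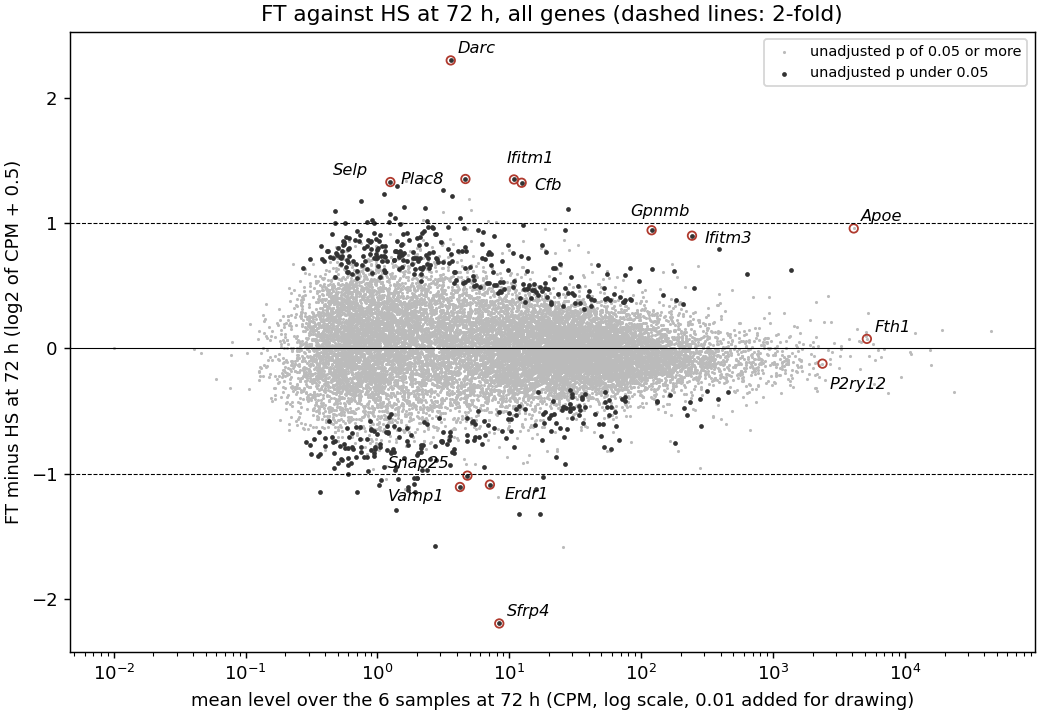
Difference between FT and HS at 72 h (y axis, log2 of CPM + 0.5) against the mean level over the 6 samples (x axis, CPM, log scale) for 16810 genes. Dark points are the 505 genes with an unadjusted p under 0.05, dashed lines mark 2-fold, and the 59 genes at or beyond 2-fold lie mostly under 10 CPM.

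The intervals say how large a difference these samples could have hidden. For 13152 genes (78.2%) the 95% interval of the difference lay wholly within 2-fold in either direction. The share was 94.4% among the 1769 genes with a mean of at least 100 CPM, 92.2% at 10 to 100 CPM, 67.0% at 1 to 10 CPM and 60.3% under 1 CPM. At low levels a 2-fold difference was therefore often not detectable. The 0.5 CPM added before the log2 also shrinks differences at low levels, so that the shares there depend on it. Genes with an interval within 2-fold numbered 10060 with 0.1 CPM added and 15263 with 1 CPM added. They numbered 9772 with reads thinned to the smallest library, and 12862 with only the 6 samples fitted. Distances between samples, as the root mean square of log2 differences over all genes, were similar within and between groups. They ranged from 0.441 to 0.681 within FT, from 0.506 to 0.527 within HS and from 0.420 to 0.659 between the groups. The nearest pair of all joined an FT and an HS sample. Among genes of at least 100 CPM, genes with some of the narrowest intervals in a fit of the 6 samples were *Copb1*, *Arhgap30* and *Naip2*. *Copb1*, which encodes a subunit of the COPI vesicle coat, had 142, 145 and 137 CPM after FT and 139, 138 and 138 CPM after HS, with a difference of 0.03 in the fit of all samples (95% interval -0.49 to 0.54).

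Genes of resting microglia showed no difference that passed the test. Of 18 homeostatic genes, 0 had an unadjusted p under 0.05 by limma, 0 were DE, and the median difference was 0.016. The interval lay within 2-fold for 17 of them. *P2ry12* had 1631, 2882 and 2371 CPM after FT and 2489, 2812 and 2052 CPM after HS, with a difference of -0.12 (interval -0.84 to 0.59). *Tmem119*, a microglial surface protein gene, had 619, 515 and 562 CPM against 461, 636 and 513 CPM, with a difference of 0.08 (interval -0.37 to 0.54). The values of FT and HS overlapped for both genes, and NI samples had means of 4223 CPM for *P2ry12* and 1239 CPM for *Tmem119*. *Sall1*, a transcription factor of microglial identity, had 208, 238 and 241 CPM after FT and 240, 201 and 249 CPM after HS. The defining microglia markers *P2ry12*, *Tmem119* and *Sall1* were thus at 201 CPM or more in every one of the 6 samples. *Arg1*, the arginase of alternatively activated macrophages, had 87.1, 24.2 and 17.0 CPM after FT and 20.1, 40.5 and 38.1 CPM after HS, with FT replicate 1 above all others.

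The genes at the top of the ranking were named by a rule: no overlap between the groups, a mean of at least 1 CPM in 1 group, and the smallest unadjusted p, 8 genes in each direction. Their differences describe the ranking, since the same values chose them. Higher in FT were *Selp*, *2410004B18Rik*, *Darc*, *Spon1*, *Scel*, *Ifitm3*, *H2-Q5* and *Batf2*. Lower in FT were *Vamp1*, *Rpgr*, *Erdr1*, *Chad*, *Gm14492*, *Pcdhga4*, *Gstp2* and *Col8a2*. Except for *Ifitm3*, their group means were below 10 CPM. *Selp* (chromosome 1 of GRCm38, 164115264 to 164150026), which encodes the adhesion molecule P-selectin of platelets and endothelium, had 2.25, 2.04 and 1.69 CPM after FT and 0.594, 0.471 and 0.410 CPM after HS. These values rest on 18, 7 and 19 reads after FT and on 18, 5 and 2 reads after HS. Its difference was 1.33 (interval 0.75 to 1.90, limma adjusted p = 0.99997). *Batf2*, a transcription factor gene induced by interferons, had 2.75, 3.51 and 3.56 CPM after FT and 0.958, 1.79 and 1.03 CPM after HS. *Spon1*, which encodes the matrix protein F-spondin, had 5.49, 7.89 and 4.99 CPM after FT and 3.50, 2.64 and 2.46 CPM after HS, and NI had a mean of 8.42 CPM.

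In the other direction, *Vamp1* (chromosome 6, 125215581 to 125222306), a vesicle fusion gene of neurons, had 3.87, 1.17 and 2.85 CPM after FT and 5.15, 5.28 and 6.97 CPM after HS. Its difference was -1.11 (interval -1.72 to -0.49), and -0.71 without FT replicate 2, which had the lowest value. *Rpgr*, a ciliary transport gene of the X chromosome, had 3.49, 4.67 and 5.34 CPM after FT against 7.76, 7.35 and 8.61 CPM after HS. *Chad*, which encodes the matrix protein chondroadherin, had 1.12, 1.17 and 1.07 CPM after FT, from 4 to 12 reads, and 3.34, 2.73 and 2.46 CPM after HS. *H2-Q5*, *Gstp2* and *Pcdhga4* have near-identical relatives or shared exons, so that reads could be split between copies, and their values are uncertain.

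**Figure D2:**
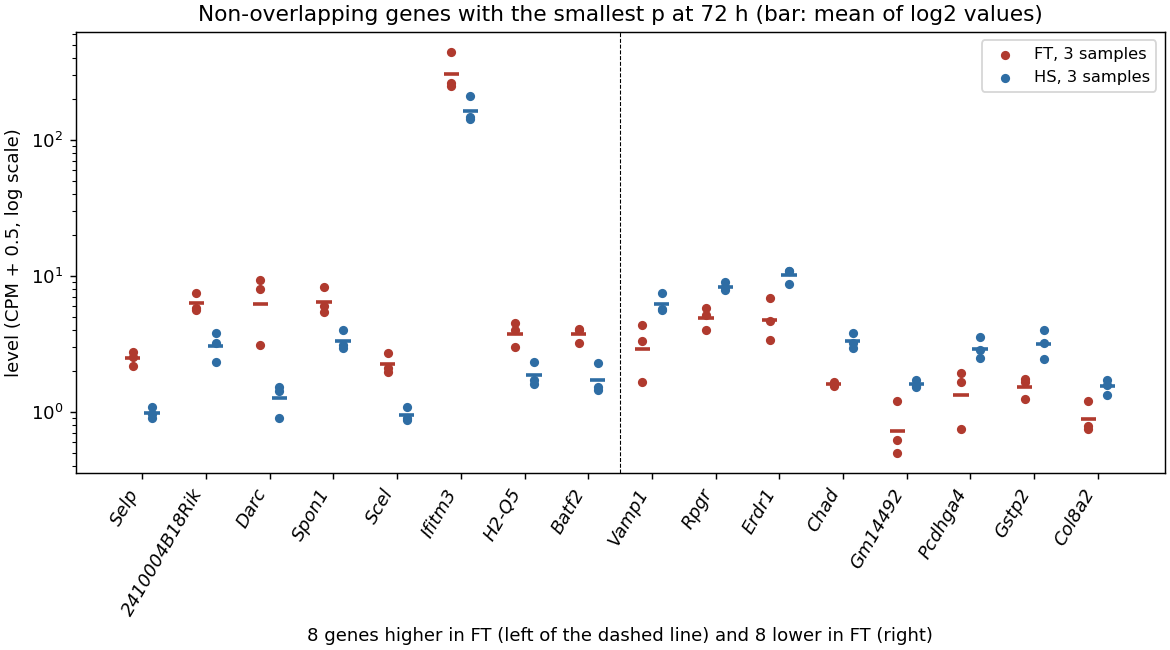
Level in each sample at 72 h (CPM + 0.5, log scale) of the 8 genes higher and the 8 lower in FT with no overlap between groups and the smallest unadjusted p. Points are samples (3 per group), bars are means of log2 values, and of these genes only *Ifitm3* lies above 100 CPM.

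*Ifitm3* had the highest level of the 16 genes, and stood among other interferon-stimulated genes that were higher in FT. Interferons signal through receptors on the cell surface to STAT and IRF proteins, which bind interferon response elements in promoters and switch on antiviral genes. *Ifitm3* (chromosome 7, 141009590 to 141010744) encodes a membrane protein that blocks virus entry. It had 263, 442 and 251 CPM after FT and 143, 211 and 148 CPM after HS, against 56.0 ± 10.2 CPM in NI (SD, n = 3). All FT samples were above all HS samples, and in each group replicate 2 was the highest. The difference was 0.90 (interval 0.39 to 1.41), with a limma adjusted p of 0.99997. With only the 6 samples fitted and paired by replicate number, the limma adjusted p was 0.0621. The labels do not give this pairing, which rests on a correlation in these same values. With all 20 samples fitted and paired in this way, the smallest limma adjusted p of any gene was 0.99997. Where samples are called paired below, only the 6 samples were fitted, unless stated. In the paired edgeR likelihood ratio test, which was added after seeing the data, the adjusted p was 0.00122 and the difference of 0.90 was below the 2-fold limit.

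Of 20 interferon-stimulated genes in a list that does not hold *Ifitm3*, 5 were higher in FT at an unadjusted limma p under 0.05 and 0 were lower, where 1.71% and 1.30% of all genes were. The 5 are *Ifi44*, *Bst2*, *Zbp1*, *Oasl2* and *Rtp4*. The difference was above 0 in 18 of the 20, with a median of 0.23, and all FT samples were above all HS samples for 3 of them, where 4.10% of all genes were. *Bst2*, which encodes tetherin, a protein that holds budding virus at the cell surface, had 164, 264 and 214 CPM after FT and 104, 187 and 131 CPM after HS (difference 0.62, interval 0.11 to 1.13). *Oasl2*, of the oligoadenylate synthetase family, had 51.7, 73.0 and 74.0 CPM against 37.0, 46.5 and 46.7 CPM (difference 0.59, interval 0.02 to 1.17). The groups did not overlap for *Oasl2*, whereas HS replicate 2 lay above FT replicate 1 for *Bst2*. *Irf7*, a transcription factor that amplifies the response, had 69.5, 83.0 and 108 CPM after FT and 47.5, 60.7 and 68.9 CPM after HS, without overlap (difference 0.55, interval -0.05 to 1.14). *Ifit2*, an interferon-induced gene that binds foreign RNA, had 49.5, 93.8 and 89.5 CPM against 51.0, 106 and 77.1 CPM, with overlap. Leaving out FT replicate 2 or HS replicate 1 left 1 of the 20 that passed 0.05 unadjusted, and leaving out both libraries numbered 2 left 3. FT replicate 2 held the highest of the 6 values for 10 of the 20 genes, and HS replicate 1 for 0. Over all 16810 genes these libraries were highest for 3746 and 2645.

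The promoters of some of these genes carry a recognizable interferon response element. A simple form of this element, GAAA followed by 2 bases of any kind (NN) and again by GAAA, was searched on both strands from 250 bases before to 50 bases after the start of each gene in RefSeq (GRCm38.p6). Overlapping matches were counted separately. The promoter table held 14 of the 20 listed genes, and 8 of these (57.1%) had at least 1 match, against 3.49% of 27025 genes in all. A match is a description of the sequence and not a binding site. Shown are the 250 bases before the start of *Bst2* (chr8:71537473-71537722, minus strand) and of *Oasl2* (chr5:114896684-114896933, plus strand), as examples of a promoter with matches and without, and the 30 bases after the annotated start of *Ifitm3* (chr7:141010715-141010744, minus strand), where both of its matches lie. Matches are in capitals.
Bst2: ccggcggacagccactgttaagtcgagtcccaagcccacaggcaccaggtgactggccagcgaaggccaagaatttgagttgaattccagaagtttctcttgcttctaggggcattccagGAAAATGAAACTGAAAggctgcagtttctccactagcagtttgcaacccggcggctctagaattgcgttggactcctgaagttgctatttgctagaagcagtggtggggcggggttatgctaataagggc
Oasl2: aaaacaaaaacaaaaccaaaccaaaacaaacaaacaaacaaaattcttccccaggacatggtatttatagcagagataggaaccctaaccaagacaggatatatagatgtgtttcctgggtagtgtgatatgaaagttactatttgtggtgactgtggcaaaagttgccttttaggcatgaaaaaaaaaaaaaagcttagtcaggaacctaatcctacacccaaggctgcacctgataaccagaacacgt
Ifitm3: agGAAAAGGAAActtctgaGAAACCGAAAc
The capitals in *Bst2* are 2 overlapping matches, and those in *Ifitm3* are 2 separate ones.

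The same 20 genes were compared between FT and HS at the later times, in other samples. At 1 week HS had 2 libraries and FT 3, against 3 each at the other times, and 1 of these HS and 2 of these FT libraries were low in *Fth1*. At this time 0 of the 20 genes had an unadjusted limma p under 0.05 in either direction, and the difference was above 0 in 19 of 20 with a median of 0.19. At 2 weeks 12 of 20 were higher in FT and 0 lower, with a median of 0.64 and a difference above 0 in all 20. For comparison, 1.72% of all genes were higher and 2.59% lower at 1 week at this threshold, and 1.36% were higher and 1.25% lower at 2 weeks. *Ifitm3* had a difference of 0.23 at 1 week and 1.01 at 2 weeks. *Bst2*, *Zbp1*, *Oasl2* and *Rtp4* were under an unadjusted p of 0.05 in the same direction at both 72 h and 2 weeks. The change in the difference of *Ifitm3* from 72 h to 2 weeks did not pass the test.

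**Figure D3:**
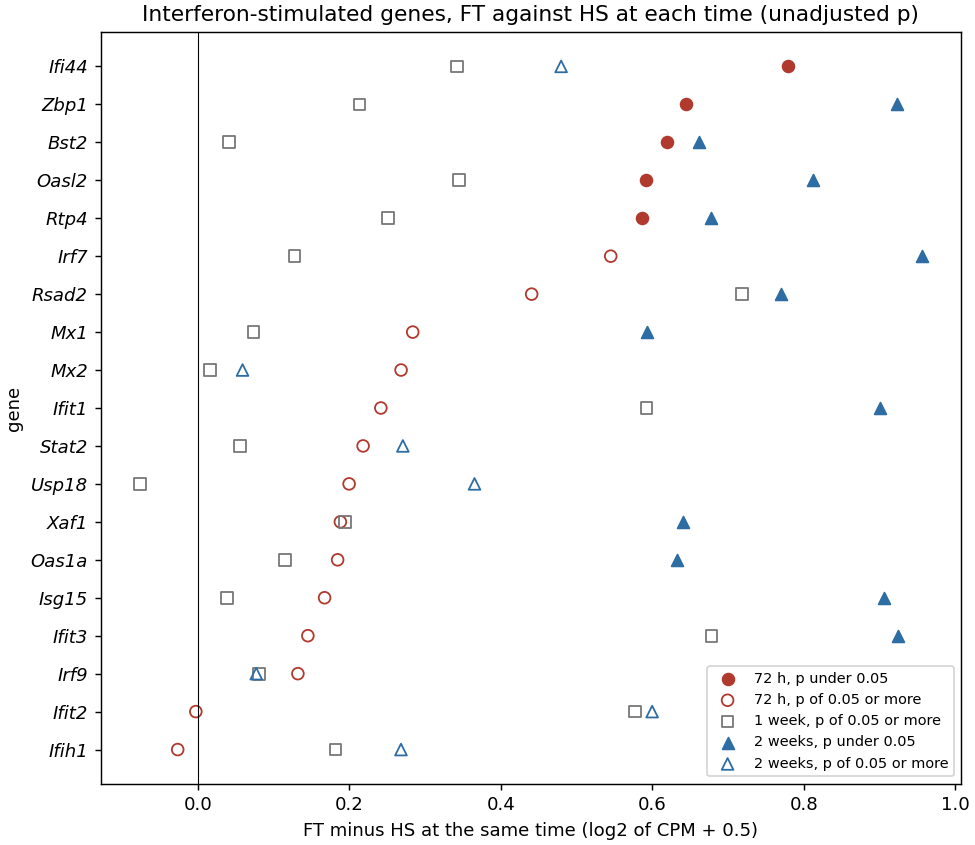
Difference between FT and HS (x axis, log2 of CPM + 0.5) for 19 of the 20 interferon-stimulated genes (y axis) at 72 h, 1 week and 2 weeks. Filled symbols have an unadjusted p under 0.05: 5 genes at 72 h and 12 at 2 weeks, all to the right of 0, and 0 at 1 week.

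Of the 505 genes with an unadjusted p under 0.05 at 72 h, 47.7% had the same direction at 1 week and 51.3% at 2 weeks, against 48.2% and 50.4% of all 16810 genes. The difference at 72 h was tested against that at 1 week and at 2 weeks, and limma called 0 genes in either test, with 661 (3.93%) and 435 (2.59%) under an unadjusted p of 0.05. *Ccl5*, a chemokine for T cells and monocytes, was higher in FT at an unadjusted p under 0.05 at all 3 times. At 72 h it had 24.0, 34.8 and 11.5 CPM after FT and 11.5, 13.2 and 10.9 CPM after HS, with FT replicate 3 inside the HS range. Without FT replicate 2 the difference was 0.48 and its unadjusted p was above 0.05. With all samples its differences were 0.82, 0.68 and 1.12 at 72 h, 1 week and 2 weeks.

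The inflammatory genes that the study examined on these samples were taken as lists, so that their direction is not independent evidence. Of 12 pro-inflammatory genes, 2 were higher in FT at an unadjusted p under 0.05, *Ifitm3* and *Ifitm1*, 0 were lower, and the median difference was 0.39. The shares of all genes were 1.71% higher and 1.30% lower, and with samples paired by number 2.26% and 2.39%. With samples paired, 3 of the 12 were higher and 1 lower, *Cxcl10*. *Ifitm1*, a relative of *Ifitm3*, had 38.9, 9.64 and 3.56 CPM after FT and 5.68, 4.52 and 2.67 CPM after HS, so that FT replicate 3 lay below HS replicates 1 and 2, and without FT replicate 1 the difference was 0.48 and no longer passed 0.05 unadjusted. *Il1b*, which encodes the cytokine interleukin 1 beta, had 242, 171 and 154 CPM after FT and 65.9, 275 and 217 CPM after HS, with the lowest and the highest value both in HS. *Cxcl10*, an interferon-induced chemokine, ran against the others with 95.6, 65.4 and 47.8 CPM after FT and 99.2, 92.1 and 80.2 CPM after HS (difference -0.43, interval -1.13 to 0.28). Of 9 anti-inflammatory genes 0 passed in either direction, with a median of 0.13. FT replicate 1 held the highest value for 7 of the 9 and for 2761 of all 16810 genes. With samples paired by number, 2 of these 9 were higher, *Il1rn* and *Igf1*. *Il1rn*, the interleukin 1 receptor antagonist, had 65.5, 40.6 and 44.4 CPM after FT and 15.6, 46.8 and 39.0 CPM after HS.

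A list of 9 genes that the study singled out between FT and HS at later times had 1 member under an unadjusted p of 0.05 at 72 h, *Cxcl13*, and 3 with samples paired, all higher in FT. Higher at this threshold were 1.71% of all genes unpaired and 2.26% paired. *Cxcl13*, a chemokine for B cells, had 2.62, 2.34 and 0.890 CPM after FT and 1.06, 1.41 and 0.410 CPM after HS. *Gpx3*, a secreted glutathione peroxidase, had 84.4, 73.9 and 81.7 CPM after FT and 57.6, 72.7 and 56.4 CPM after HS, which do not overlap (difference 0.37, interval -0.06 to 0.79). *Folr2*, a folate receptor of macrophages, had 28.7, 83.8 and 77.8 CPM against 45.5, 47.6 and 31.4 CPM, with FT replicate 1 the lowest of all 6. *Egr2* ranged from 79.9 to 113 CPM after FT and from 38.4 to 141 CPM after HS.

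Genes of disease-associated microglia, the state in which microglia handle lipid and debris, had 2 of 17 members higher in FT, 4 with samples paired, and 0 lower, with a median of 0.11, where 1.71% of all genes were higher unpaired and 2.26% paired. *Gpnmb*, a lysosomal glycoprotein gene, had 289, 104 and 98.8 CPM after FT and 57.1, 74.2 and 97.6 CPM after HS (difference 0.94, interval 0.33 to 1.56). All FT samples were above all HS samples, with FT replicate 3 just above HS replicate 3, and NI had a mean of 2.91 CPM. Without FT replicate 1 the difference of *Gpnmb* was 0.44 and its unadjusted p was above 0.05. *Lgals3bp*, a secreted glycoprotein gene that also responds to interferon, had 584, 794 and 941 CPM against 453, 551 and 509 CPM (difference 0.59, interval 0.10 to 1.09). *Apoe*, the main lipid carrier of glia, was uneven, with 7974, 1689 and 6338 CPM after FT and 2384, 927 and 5265 CPM after HS. Within every replicate number *Apoe* was higher in FT, and it passed 0.05 unadjusted only with samples paired. *Ctsd*, which encodes the lysosomal protease cathepsin D, had 43802, 42044 and 55056 CPM after FT and 37128, 47866 and 42975 CPM after HS, and *Ctsb* had 19256, 19016 and 21940 CPM against 16953, 20085 and 17472 CPM. The groups overlapped for both cathepsins.

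Of 15 chemokine genes 2 were higher in FT, *Ccl5* and *Cxcl14*, and 0 lower, and the median was -0.015. The shares of all genes were 1.71% higher and 1.30% lower unpaired, and 2.26% and 2.39% paired. *Ccl4*, which draws monocytes and T cells, had 1150, 2016 and 1476 CPM after FT and 1250, 2265 and 1635 CPM after HS, the same order of replicates in both groups. *Ccl2*, which draws monocytes, had 333, 423 and 355 CPM against 235, 560 and 389 CPM (difference -0.01, interval -1.04 to 1.01). Cytokines and genes of NF-kB feedback had 0 of 15 members under an unadjusted p of 0.05, with a median of -0.052, and 1 with samples paired. *Tnf* had 132, 77.7 and 84.6 CPM after FT and 122, 121 and 116 CPM after HS.

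Among 11 complement genes *Cfb* alone was higher in FT at an unadjusted p under 0.05, and 0 were lower, with intervals within 2-fold for the other 10. At this threshold 1.71% of all genes were higher and 1.30% lower. *Cfb* (complement factor B, of the alternative pathway) had 15.6, 19.0 and 19.1 CPM after FT and 5.38, 7.54 and 7.79 CPM after HS, against a mean of 1.84 CPM in NI. All FT samples lay above all HS samples. The difference was 1.32 (interval 0.46 to 2.18). *C1qb*, a subunit of the classical pathway's first component, had 11465, 13214 and 12177 CPM after FT and 9219, 14674 and 10580 CPM after HS, with overlap. Of 8 MHC class II genes 0 passed, with a median of 0.13, and *Cd74*, the invariant chain, had 1959 CPM in FT replicate 1 against 586 to 922 CPM in the other 5 samples.

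Of 30 proliferation genes 1 was higher in FT and 1 lower, *Cenpf* and *Kif11*, and with samples paired 1 was higher and 4 lower. The shares of all genes were 1.71% higher and 1.30% lower unpaired, and 2.26% and 2.39% paired. The median of the list was -0.19 and 29 of its intervals lay within 2-fold. *Top2a*, a topoisomerase of dividing cells, had 206, 207 and 172 CPM after FT and 272, 180 and 176 CPM after HS, against 7.67 CPM in NI. *Pcna*, the replication clamp, had 183, 208 and 133 CPM against 250, 229 and 147 CPM. HS replicate 1 held the highest of the 6 values for 25 of the 30 genes and for 2645 of all 16810 genes. *Rrm2*, a subunit of ribonucleotide reductase, had 289 CPM in HS replicate 1 and 101 to 152 CPM in the other 5. Of 18 DNA damage checkpoint genes 0 passed, with a median of -0.029, and with samples paired 1 was higher and 1 lower. The lower one, *Chek2*, a checkpoint kinase gene, had 27.2 to 30.1 CPM in the 3 FT samples and 35.9 to 39.6 CPM in the 3 HS samples, without overlap (difference -0.38, interval -0.91 to 0.14). *Brca1* had 14.2, 12.3 and 11.7 CPM after FT and 16.6, 14.4 and 10.3 CPM after HS (difference -0.09, interval -0.64 to 0.46). *Gadd45a*, a stress-induced gene, had 6.12, 9.64 and 3.92 CPM after FT and 2.28, 3.02 and 3.69 CPM after HS, all FT above all HS, and it passed 0.05 unadjusted only with samples paired.

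Oxidative phosphorylation had 0 of 18 genes under an unadjusted p of 0.05, a median of -0.056 and all 18 intervals within 2-fold. *Cox4i1*, a subunit of complex IV, had 803, 1130 and 889 CPM after FT and 971, 1193 and 883 CPM after HS. Cholesterol and lipid handling had 0 of 14, a median of 0.075 and 12 intervals within 2-fold. Hypoxia and glycolysis had 0 of 16, -0.097 and 13, with 1 higher when paired. Iron and heme had 0 of 10, -0.17 and 6, with 1 lower when paired. When paired, 2.26% of all genes were higher and 2.39% lower. *Hmox1*, the heme oxygenase, ran from 114 to 496 CPM after FT and from 212 to 903 CPM after HS, and among samples numbered 2 and among those numbered 3 it was higher in HS. Heat shock had 0 of 13 and a median of -0.030. *Hspa1a*, an inducible chaperone, had 4.69 CPM in HS replicate 1 and 25.5 to 40.6 CPM in the other 5 samples. Immediate-early genes had 0 of 19, and 2 lower with samples paired, with a median of 0.0017. *Fos* had 909, 1208 and 1161 CPM after FT and 995, 1362 and 1328 CPM after HS. Only 1 of these 19 intervals lay within 2-fold in the fit of all 20 samples and 17 did when only the 6 samples were fitted.

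**Figure D4:**
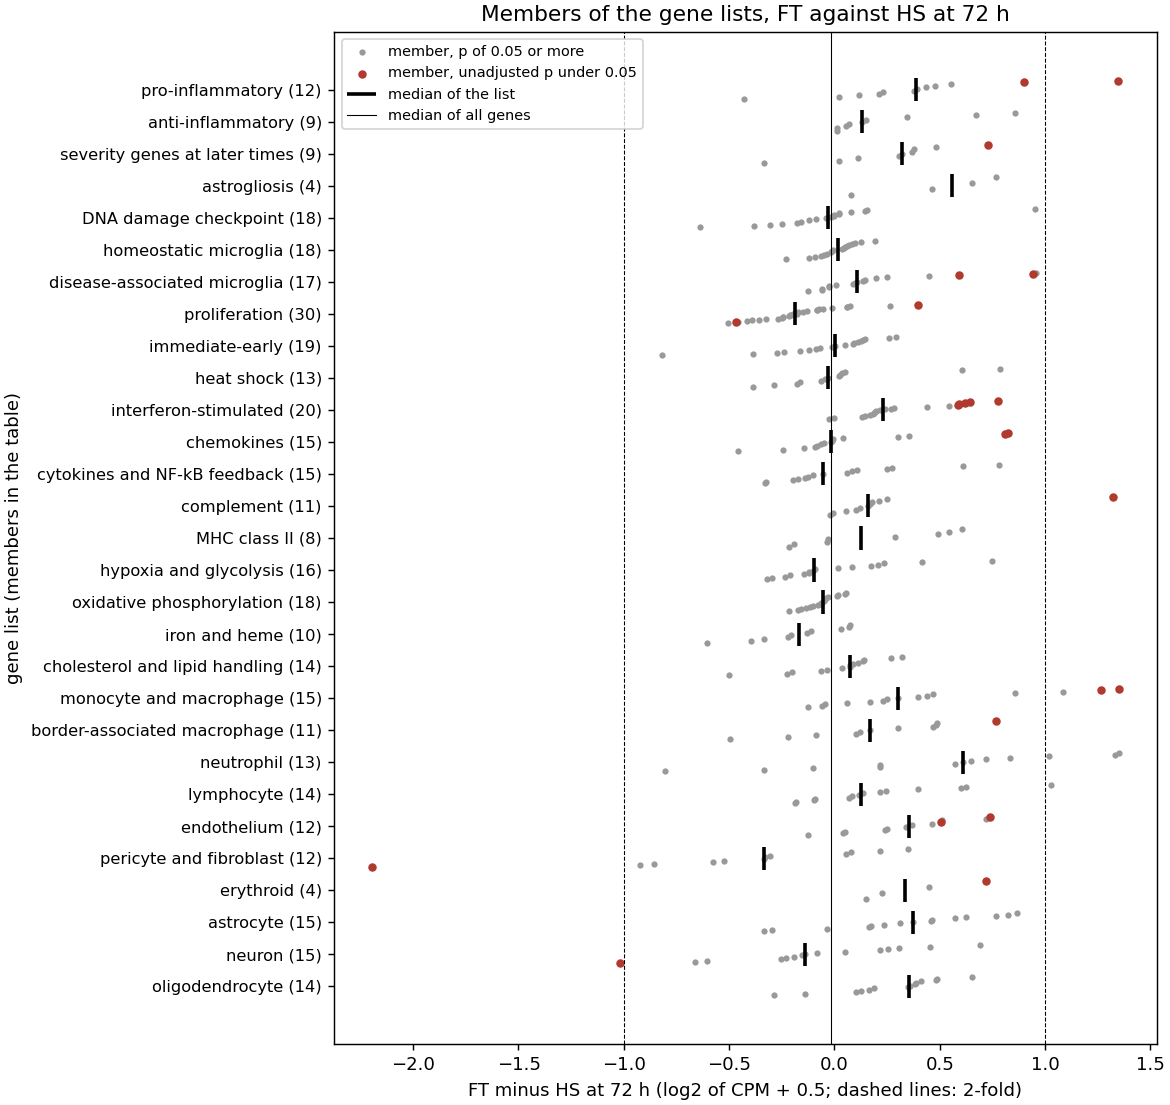
Difference between FT and HS at 72 h (x axis, log2 of CPM + 0.5) for the members of 29 gene lists (y axis, number of members in the table). Each point is a gene, thick bars are list medians and the thin line is the median of all genes; most points lie within the dashed 2-fold lines, and *Sfrp4* lies farthest from 0.

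Sorted eGFP-high cells can carry RNA of other cells, and fewer cells of a type cannot be told apart from less RNA per cell in such bulk samples. The markers of these types are given here as counts, summed levels and the library that was highest. Of 15 monocyte and macrophage genes 2 were higher in FT, *Ly6c2* and *Plac8*, and 0 lower, and 3 were higher with samples paired. Of all genes 1.71% were higher and 1.30% lower unpaired, and 2.26% higher and 2.39% lower paired. The list had a median of 0.30 and summed levels of 1686 to 2601 CPM after FT and 1703 to 2034 CPM after HS. *Ly6c2*, a defining gene of inflammatory monocytes, had 3.87, 6.13 and 3.92 CPM after FT and 0.958, 1.79 and 2.26 CPM after HS, without overlap (difference 1.27, interval 0.26 to 2.28). *Ccr2*, their chemokine receptor, had 166, 68.1 and 57.0 CPM after FT and 34.6, 81.1 and 100 CPM after HS, with overlap. FT replicate 1 held the highest value for 11 of the 15 genes and for 2761 of all 16810 genes. Neutrophil genes had 0 of 13 under an unadjusted p of 0.05 and 4 higher with samples paired, with a median of 0.61, and FT replicate 1 was highest for 8 of the 13. *S100a8*, a defining neutrophil gene, had 19.5, 4.67 and 5.70 CPM after FT and 4.95, 3.67 and 2.87 CPM after HS, and NI had a mean of 18.9 CPM. *Ly6g* is not in the table. Of 11 border-associated macrophage genes *Siglec1* alone passed, higher in FT, with 28.2, 19.0 and 25.3 CPM after FT and 13.3, 15.7 and 12.5 CPM after HS, and it encodes a sialic acid receptor that interferon also induces.

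Endothelial genes had 2 of 12 higher, *Vwf* and *Kdr*, and 0 lower, and 3 higher with samples paired, against 1.71% and 1.30% of all genes unpaired and 2.26% and 2.39% paired. They had a median of 0.35 and sums of 99.0 to 130 CPM after FT, 77.3 to 116 CPM after HS and 101 to 169 CPM in NI. *Vwf*, the von Willebrand factor, had 20.6, 8.18 and 18.3 CPM after FT and 11.1, 6.69 and 8.41 CPM after HS, whereas *Cldn5*, a defining tight junction gene, had 6.74, 1.46 and 5.61 CPM against 5.28, 1.04 and 4.31 CPM. *Selp* and *Darc*, both known from endothelium, had differences of the same sign as the median of this list, and the part of endothelial RNA in their values was not tested. Astrocyte genes had 0 of 15 under an unadjusted p of 0.05, and 4 higher and 1 lower with samples paired. They had a median of 0.37 and sums of 686 to 942 CPM after FT and 780 to 959 CPM after HS. *Glul*, the glutamine synthetase gene, held the largest part of these sums, with 402, 504 and 520 CPM after FT and 545, 679 and 571 CPM after HS. *Glul* was lower in FT without overlap, whereas the difference was above 0 in 12 of the 15 genes. Of 4 genes of astrogliosis 0 passed unpaired and 2 with samples paired, among them *Gfap*, the astrocyte filament gene, with 254, 354 and 356 CPM after FT and 330, 185 and 134 CPM after HS. Oligodendrocyte genes had 0 of 14, 1 higher with samples paired, a median of 0.35, and the highest value in HS replicate 1 for 12 of the 14. *Mbp*, myelin basic protein, had 543, 888 and 824 CPM after FT and 1232, 413 and 333 CPM after HS. Of 15 neuron genes *Snap25*, a synaptic protein gene, alone passed, lower in FT, with 3.87, 1.46 and 3.92 CPM against 9.18, 5.47 and 4.92 CPM. With samples paired 2 neuron genes were higher and 1 lower, and of these *Map2*, a dendritic cytoskeleton gene, was higher, with 31.9, 99.3 and 42.7 CPM after FT and 22.5, 50.7 and 45.7 CPM after HS. Lymphocyte genes had 0 of 14, and 1 higher with samples paired, *Nkg7*, a granule gene of cytotoxic cells, with 3.24, 4.09 and 1.96 CPM after FT and 1.45, 1.79 and 0.615 CPM after HS, without overlap (difference 1.03, interval -0.07 to 2.12). *Cd3e*, a T cell receptor subunit gene, was at 0.188 to 1.62 CPM over the 6 samples. Erythroid genes had 1 of 4 higher, *Slc4a1*, the anion exchanger of red cells, which had 2.50, 3.21 and 3.65 CPM after FT and 2.01, 1.88 and 1.23 CPM after HS.

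Pericyte and fibroblast genes had a negative median, -0.33, with 1 of 12 lower in FT, 3 with samples paired, and 0 higher. Lower in FT were 1.30% of all genes unpaired and 2.39% paired, and higher 1.71% and 2.26%. HS replicate 1 had a summed level of 180 CPM for this list, against 58.0 to 75.2 CPM in the other HS samples and 46.5 to 74.8 CPM after FT, and held the highest value for 8 of the 12. *Sfrp4* (chromosome 13, 19623175 to 19632825), which encodes a secreted Wnt antagonist, had 2.25, 1.17 and 0.890 CPM after FT and 35.3, 1.22 and 9.43 CPM after HS. It was high in 2 of the 3 HS samples, whereas HS replicate 2 was within the FT range. The difference was -2.20 (interval -3.49 to -0.90, limma adjusted p = 0.99997), the lowest of all genes. *Sfrp4* was DE only when HS replicate 2 was left out (difference -3.35, limma adjusted p = 0.00272), when both libraries numbered 2 were left out (-3.27, limma adjusted p = 0.0232), and in paired edgeR fits. Without HS replicate 1 its difference was -1.16. *Col1a1*, a defining collagen gene of fibroblasts, had 3.87, 4.67 and 1.69 CPM after FT and 13.6, 6.22 and 3.08 CPM after HS, and *Pdgfrb*, of pericytes, had 3.00, 1.46 and 2.32 CPM against 3.37, 1.04 and 2.26 CPM. The part of fibroblast RNA in the *Sfrp4* values was not tested.

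Samples of the same replicate number deviated together at 72 h, so that the comparison was also made within numbers. The labels do not say what a number marks, and the pairing rests on a correlation in the same values that it tests. Paired counts and p-values are therefore not independent support for a difference. Paired in this way, limma on the 6 samples called 0 genes, with 782 (4.65%) under an unadjusted p of 0.05. Of these, 380 were higher (2.26%) and 402 lower (2.39%). The smallest limma adjusted p was 0.0621, for *Ifitm3* and *Darc*. Paired over all 20 samples, limma also called 0 genes. The number did not mark the same kind of library in every group of that fit. Libraries low in *Fth1* were numbered 2 at 72 h, but 3 in NI and in FT at 2 weeks, and 1 and 3 in FT at 1 week. In that fit 479 genes had an unadjusted p under 0.05, and the smallest adjusted p was 0.99997. The paired edgeR quasi-likelihood test called 3 genes, *Darc*, *Cfb* and *Sfrp4*. The paired likelihood ratio test called 8, these 3 and *Ifitm1*, *Plac8*, *Klrd1*, *Smoc2* and *Igfbp5*. Both paired edgeR fits were chosen after seeing the data. *Darc*, now named *Ackr1* (chromosome 1, 173331886 to 173333503), which encodes a chemokine-binding receptor of red cells and venules, had 7.61, 2.63 and 8.90 CPM after FT, from 9 to 100 reads. After HS it had 1.02, 0.942 and 0.410 CPM, from 2 to 31 reads. All FT samples were above all HS samples, and its difference by limma, 2.30 (interval 1.10 to 3.50), was the highest of all genes. In the paired quasi-likelihood test the difference was 2.80 for *Darc* (adjusted p = 0.0125), 1.39 for *Cfb* (adjusted p = 0.0331) and -3.35 for *Sfrp4* (adjusted p = 0.00291).

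The 5 genes added by the likelihood ratio test were uneven over the pairs. *Klrd1*, which encodes the natural killer cell receptor CD94, had 4.62, 1.75 and 0.623 CPM after FT and 0.661, 0.565 and 0.205 CPM after HS. *Plac8*, a gene of monocytes, had 10.2, 5.26 and 4.99 CPM after FT and 3.40, 2.92 and 1.03 CPM after HS. In both genes each FT sample was higher than the HS sample of its number, and FT replicate 1 was the highest of all. *Igfbp5*, which encodes a binding protein for insulin-like growth factors, had 43.6 CPM in HS replicate 1 and 5.75 and 6.97 CPM in the other HS samples, against 6.49, 4.67 and 3.12 CPM after FT. *Smoc2*, a matrix protein gene, likewise had 10.8 CPM in HS replicate 1, 1.13 and 2.05 CPM in the other HS samples, and 1.50, 0.292 and 0.623 CPM after FT. For *Igfbp5* and *Smoc2* the gap between FT and HS was widest in the samples numbered 1, and HS replicate 1 was also high in fibroblast genes. Both genes were lower in FT within the other numbers too, and the part of fibroblast RNA in their values was not tested.

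**Figure D5:**
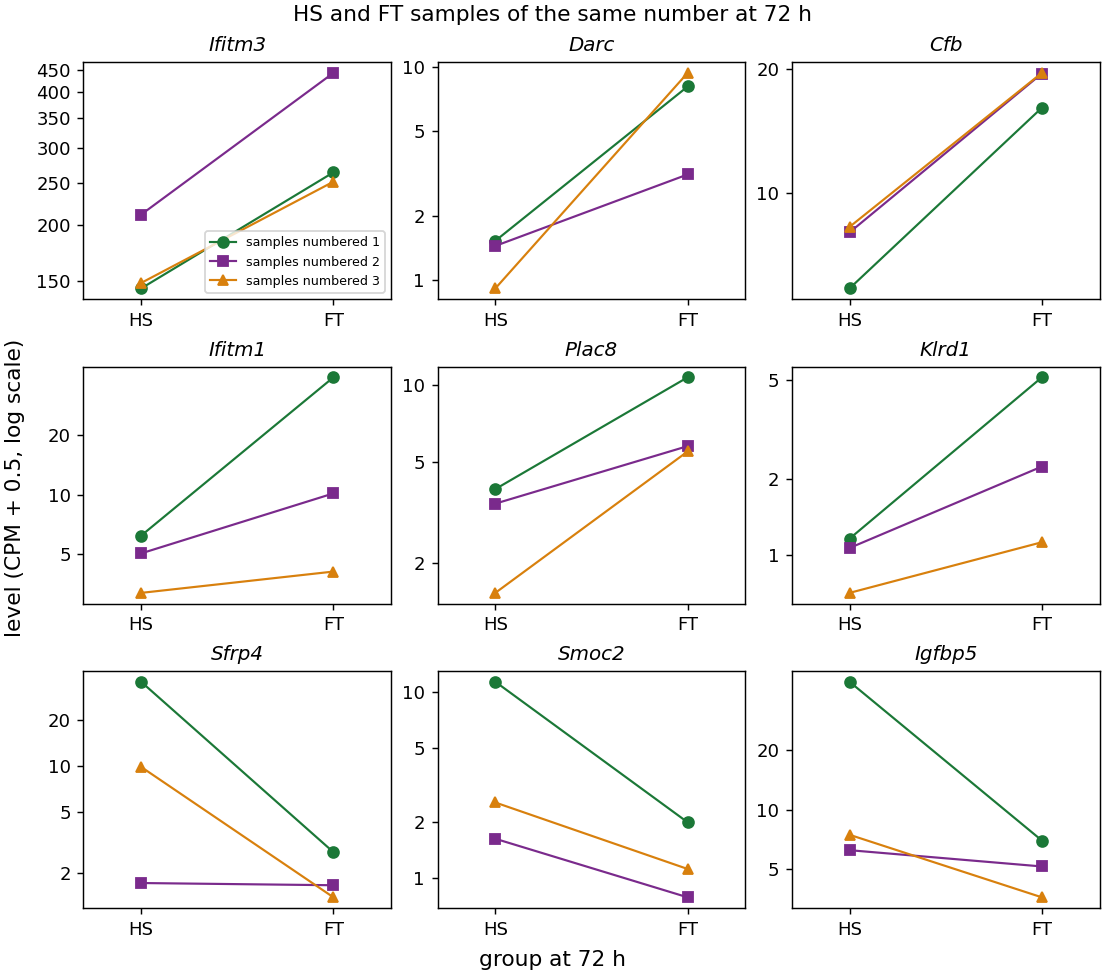
Level (CPM + 0.5, log scale) of the 8 genes called by the paired likelihood ratio test and of *Ifitm3* in HS and FT samples at 72 h, with lines joining samples of the same number. For *Ifitm3*, *Darc*, *Cfb*, *Ifitm1*, *Plac8* and *Klrd1* all 3 lines go up, and for *Sfrp4*, *Smoc2* and *Igfbp5* all go down, by little for *Sfrp4* in the samples numbered 2.

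The genes with the widest spread within groups were mostly those low in the libraries numbered 2. By a rule on spread alone, at a mean of at least 10 CPM, these were *Lag3*, *Fth1*, *Alkbh6*, *Vars*, *Rpl13*, *Lpar5*, *Tradd* and *Map4k1*. *Lag3*, an inhibitory receptor gene, had 62.7, 2.63 and 70.6 CPM after FT and 32.2, 6.22 and 80.6 CPM after HS (difference -0.11, interval -3.06 to 2.84). *Alkbh6* differed from the rest, with 0.584 CPM in FT replicate 2 alone and 24.0 to 34.0 CPM in the other 5 samples. The unpaired intervals of these genes are wide, and within numbers the *Fth1* values of FT and HS were 7932 and 8110, 695 and 554, and 6659 and 6968 CPM.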

How the data were processed

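Per the labels, poly(A) RNA of sorted microglia was amplified and sequenced, and adapter reads were removed with FASTX-Toolkit. The authors mapped reads with TopHat 2.0.9 to mm10, counted them per gene with HTSeq 0.5.4p3, kept genes with 10 counts in at least 2 replicates, and deposited counts normalized with edgeR 3.3.6, a signal in counts per 1e6 reads (CPM). Strand use in counting is not given in the sources used here. Whole reads were recovered for 100% of 336200 deposited values (tolerance 0.001 of a read), which gave the depths.

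FT was compared with HS by limma 3.58.1 with a trended variance (R 4.3.3), on log2 of CPM + 0.5, with all 20 samples in 7 groups, Benjamini-Hochberg adjustment over 16810 genes, and 95% intervals. DE genes had an adjusted p under 0.05 and at least a 2-fold change. limma was tested on simulated data. Recovered reads were also fitted with edgeR 4.0.16 and DESeq2 1.42.0, and settings for scaling, filtering, the value added, sample weights and single samples were varied.

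The labels do not say what a replicate number marks. Deviations from the group means correlated at 0.143, 0.267 and 0.179 between FT and HS samples of the same number over genes, so paired fits with a replicate block were added. Named were the 8 genes higher and 8 lower described in the report, in each list the 2 most abundant members and the one with the smallest p, all members of lists the study chose, the 8 genes of widest and 4 of narrowest spread, and *Arg1*, *Ccr2* and *Emr1*. *Emr1*, a macrophage gene, had 780, 915 and 956 CPM after FT and 1033, 934 and 774 CPM after HS. Named outside this rule, with their values seen, were *Apoe*, *Ccl2*, *Cd3e*, *Cldn5*, *Col1a1*, *Cxcl14*, *Hmox1*, *Ifit2*, *Igfbp5*, *Irf7*, *Kdr*, *Kif11*, *Klrd1*, *Lgals3bp*, *Ly6c2*, *Oasl2*, *P2ry12*, *Pdgfrb*, *Rrm2*, *Rtp4*, *S100a8*, *Sall1*, *Smoc2*, *Tmem119*, *Tnf* and *Zbp1*. A few genes are not reported here. The samples, gene lists and tests were chosen with earlier results of these data known.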

Additional observations from a re-analysis of the deposited data

How the results depend on the processing

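The number of DE genes between FT and HS stayed at 0 except in these settings: 1 gene (*Sfrp4*) without both libraries numbered 2, 3 genes in the edgeR quasi-likelihood test with the replicate block and 8 genes in the edgeR likelihood ratio test with the replicate block. Leaving out 1 sample at a time gave 0 to 1 DE genes, the 1 being *Sfrp4* without HS replicate 2. The number of genes at an unadjusted p under 0.05, 505, became 1027 with limma array weights and 326 without both libraries numbered 2. With the replicate block in limma it was 479 on all 20 samples and 782 on only the 6 samples, where it was 385 without the block. The likelihood ratio test with the block, on the 6 samples, gave 779. When 1 sample was left out the number ranged from 409 to 752. The cause was not tested. Of the 505 genes 56.8% were higher in FT, against 44.8% without FT replicate 1 and 67.2% without both libraries numbered 2. The count of interferon-stimulated genes higher at this threshold, 5 of 20, ranged from 1 to 7, and was 3 with median-of-ratios scaling. With limma the replicate block made 0 genes DE. On only the 6 samples it moved further list members past 0.05 unadjusted, as counted in the report. Some list medians shifted without both libraries numbered 2. The median went from -0.015 to 0.23 for chemokine genes and from 0.13 to 0.68 for MHC class II genes. It went from 0.35 to 0.11 for oligodendrocyte genes and from -0.33 to -1.01 for pericyte and fibroblast genes. Of the latter 12 genes, 3 were then lower in FT at an unadjusted limma p under 0.05 and 0 higher. Over all settings, differences of single named genes moved by more than the spread between replicates 68 times and passed the threshold 10 times. Depth limits genes under 1 CPM, where 1 read was worth 0.0330 to 0.292 CPM.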

Other observations

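Among the 1769 genes with a mean of at least 100 CPM, 23 had an unadjusted limma p under 0.05, 11 higher and 12 lower in FT, or 1.30%. The genes named here were chosen after their values were seen, and 0 were DE. *Ifi27l2a*, an interferon-induced gene, had 304, 663 and 533 CPM after FT and 226, 340 and 268 CPM after HS, with a difference of 0.79 at 72 h and 0.99 at 2 weeks. The FT value of replicate 1 lay inside the HS range, and the other FT samples above it. *Apoc2*, an apolipoprotein gene, had 192, 136 and 115 CPM after FT and 68.9, 128 and 90.2 CPM after HS, with overlap, and a difference of 1.05 at 1 week.

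Among the 12 lower genes was *Vdac2*, which encodes a channel of the outer mitochondrial membrane. *Vdac2* had 336, 306 and 343 CPM after FT and 440, 507 and 371 CPM after HS, with a difference of -0.41 (interval -0.79 to -0.02). *Sod1*, the cytosolic superoxide dismutase, had 429, 362 and 410 CPM after FT and 594, 523 and 419 CPM after HS, with a difference of -0.35 (interval -0.67 to -0.03). The groups did not overlap for *Vdac2*, whereas HS replicate 3 lay below FT replicate 1 for *Sod1*.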
